A study of Mus musculus with 2 samples.

Results

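Isolated shared sites are places in the genome of mouse rib chondrocytes where 1 called Sox6 peak overlapped 1 called Sox9 peak and each stood alone in its own list. A site was kept when the peaks overlapped by at least 1 bp on chromosomes 1 to 19, with no other Sox6 centre within 12.5 kb of the Sox6 centre and no other Sox9 centre within 12.5 kb of the Sox9 centre. The rule found 3278 sites among the 18232 autosomal overlapping pairs, which is 18% of them. The sites were chosen by the peak positions themselves, so their overlap and their distance from the next peak are given as a description and support nothing further. The other pairs served for comparison: 5364 were isolated in the Sox9 list only, 379 in the Sox6 list only, and 9211 in neither list, called crowded pairs here.

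SOX9 is the HMG-box transcription factor on which cartilage development depends, and it binds enhancers of cartilage matrix genes such as Col2a1 and Acan. SOX6 belongs to the SOXD group, whose members dimerise through a coiled coil, carry no known transactivation domain of their own and cooperate with SOX9 in chondrocytes. Chromatin immunoprecipitation with sequencing (ChIP-seq) recovers DNA cross-linked to such a factor, and a peak is an interval where a caller found more recovered fragments than its threshold requires.

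The Sox6 list came from 1 ChIP sample of wild-type, untreated ICR mice at postnatal day 1. Rib cartilage was dissected to hold the proliferative and prehypertrophic zones and not the mature hypertrophic one. A second sample, 1 input DNA without antibody from the same kind of animals, has no peak list. The Sox9 list was derived again by the submitters from 2 earlier samples of mouse rib chondrocytes, whose strain, age and roles (ChIP or input) the sources used here do not give. The lists held 79107 Sox6 and 23865 Sox9 peaks, 77750 and 23615 of them on autosomes, as positions without read counts or scores. Sequencing depth is therefore unknown, and no value carries a replicate error, because there is 1 list per factor. No difference below was tested between samples: bracketed ranges are 95% intervals (exact binomial for shares, order statistics for medians) that cover counting error only and treat sites as independent. The Sox9 data were made separately, so the factor cannot be told apart from the antibody, the animals, the depth or the library in any difference between the lists. All coordinates are on mm9 and start at 1. The cell type could not be checked against marker genes, because no expression was measured.

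At the edge of the rule the distances changed by a few base pairs. Among the sites nearest the limit was one with the Sox6 peak at chr10:94030805-94030985, whose next Sox6 centre was 12507.5 bp away. The Sox6 peaks at chr5:139252420-139252567 and chr5:139264996-139265215 were each other's next peak, with Sox6 centres 12612 bp and Sox9 centres 12513.5 bp apart, and both were kept. The pairs at chr13:60825128-60825229 and chr13:60812567-60812690 had Sox9 centres 12498.5 bp apart and were left out, and a pair at chr13:63134784-63134932 was left out at a Sox6 distance of 12496.5 bp. At the other limit, 2 sites overlapped by 1 bp. Of those with 2 bp, only the earliest in the Sox9 list was taken. These were the Sox6 peaks at chr10:19311743-19312045, chr11:52174027-52174092 and chr12:81466932-81467072. Just outside, the 3 isolated Sox6 peaks taken touched their Sox9 neighbour with a gap of 0 bp, at chr16:96598055-96598254, chr8:117460756-117460918 and chr11:3863933-3864021.

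In the full lists most isolated Sox9 peaks overlapped a Sox6 peak, and most isolated Sox6 peaks overlapped no Sox9 peak. Of 10676 isolated Sox9 peaks, 8590 overlapped a Sox6 peak, or 80.5% (79.7 to 81.2), against 73.6% (72.9 to 74.4) of the 12939 other autosomal Sox9 peaks. Of 15501 isolated Sox6 peaks, 3627 overlapped a Sox9 peak, or 23.4% (22.7 to 24.1), against 23.2% (22.8 to 23.5) of the 62249 others. These levels moved with list length and with the overlap required: with the Sox6 list held to the length of the Sox9 list, 50.9% of isolated Sox9 and 48.9% of isolated Sox6 peaks were shared. With an overlap of at least 50% of both peaks the values were 47.3% and 14.0%. Isolation was rarer in the longer list: 19.9% of autosomal Sox6 peaks and 45.2% of autosomal Sox9 peaks stood alone. When an isolated Sox6 peak was shared, its Sox9 partner was isolated as well in 90.4% of cases (89.4 to 91.3). In the other direction 38.2% (37.1 to 39.2) of the shared isolated Sox9 peaks had an isolated Sox6 partner. Most isolated Sox9 peaks that were shared thus lay on a Sox6 peak with another Sox6 peak nearby. An isolated Sox6 partner was still more frequent there than the 19.9% of all autosomal Sox6 peaks that stood alone.

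The lists are not sorted by position, and the sources used here do not say what their order stands for. Overlap falls along both lists, so isolated and other peaks were compared within 10 bins that each held 10% of the deposited order. In the Sox9 list the isolated peaks were shared more often in all 10 bins, and in 9 of these the intervals did not overlap. The share among isolated Sox9 peaks went from 93.2% (91.1 to 94.9) in the first bin to 70.9% (68.2 to 73.5) in the last, and among other Sox9 peaks from 88.0% (86.3 to 89.6) to 59.4% (56.5 to 62.1). The gap ranged from 3.56 percentage points in bin 3 to 13.4 in bin 9. In the Sox6 list the order of the groups changed along the list. In the first bin 68.3% (65.7 to 70.8) of isolated and 71.5% (70.4 to 72.6) of other Sox6 peaks were shared, whereas in the remaining 9 bins the isolated share was the higher one, by at most 3.29 points in bin 6. The intervals were apart in 3 of those bins. In the last bin the shares were 6.04% (4.91 to 7.34) and 4.84% (4.32 to 5.41).

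**Figure D1:**
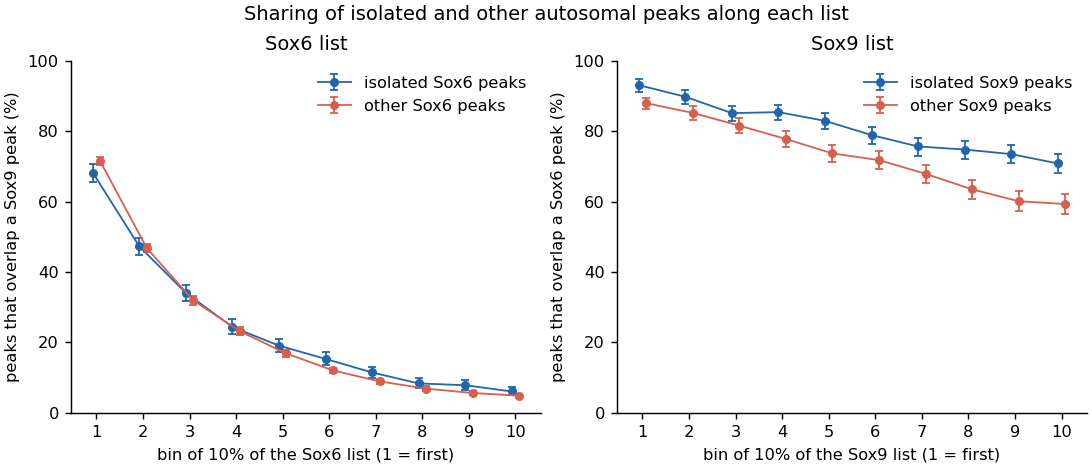
Percentage of autosomal peaks that overlap a peak of the other list (y axis) by bin of 10% of the deposited list (x axis, 1 = first), for isolated peaks (blue) and other peaks (red), with the Sox6 list on the left and the Sox9 list on the right; bars are 95% exact binomial intervals. Isolated Sox9 peaks lie above the others in all 10 bins, and the Sox6 curves cross after the first bin.

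The higher share among isolated Sox9 peaks depended on how sharing and isolation were counted. The gap was 6.84 percentage points in the full lists, 10.99 with an isolation distance of 5 kb and 5.13 with 25 kb. It was 4.87 points when the overlap had to cover at least 50% of both peaks, 6.74 with centres within 250 bp and 3.33 in the first 50% of each list. The gap fell to 0.792 points when the Sox6 list was held to the length of the Sox9 list, at 50.9% against 50.1%. With centres within 1000 bp counted as shared it turned to -1.44 points, at 89.6% (89.0 to 90.2) for isolated and 91.1% (90.6 to 91.6) for other Sox9 peaks. The reach of 1000 bp was not planned and was added after seeing the data. For Sox6 the difference of 0.221 points had no stable sign. It was 3.10 points with an isolation distance of 5 kb, at 25.2% (24.7 to 25.7) against 22.1% (21.7 to 22.5), and 0.595 points with the overlap of 50% of both peaks. With centres within 250 bp it was 0.032 points. It changed to -2.39 at equal list length, to -2.10 with an isolation distance of 25 kb, to -2.17 in the first 50% of each list and to -6.76 with centres within 1000 bp.

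Within a site both peaks were narrow and their centres close, though the required overlap itself limits how far apart the centres can be. The Sox6 peak had a median width of 153 bp (151 to 155), with quartiles of 122 and 195 bp, and the Sox9 peak one of 189 bp (187 to 192), with quartiles of 148 and 238 bp. The Sox9 peak was the wider of the pair at 2139 sites (65.3%) and the Sox6 peak at 1124. The median overlap was 117 bp, and the median share of the narrower peak that the overlap covered was 95.7%. At 1043 sites (31.8%) the Sox6 peak lay wholly inside the Sox9 peak, at 386 (11.8%) the Sox9 peak lay inside the Sox6 peak, and at 1849 (56.4%) the overlap was partial. No site had the same start and end in both lists. Widths of the partners were almost unrelated across the 3278 sites (Spearman rho 0.064, Pearson r 0.049, a description across sites of the same pair of lists).

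The centres of the partners were a median of 39 bp (37 to 41) apart, with quartiles of 17.5 and 73 bp and a range of 0 to 364 bp. At 503 sites they lay within 10 bp, at 1979 (60.4%) within 50 bp and at 2834 (86.5%) within 100 bp. The Sox9 centre had the higher coordinate at 1644 sites, the lower at 1620 and the same at 14, and the median signed offset was 0.5 bp (-1.5 to 3). The Sox9 centre was thus about as often on one side as on the other. Crowded pairs had almost the same geometry, with a median centre distance of 40 bp (39 to 41.5) and median widths of 149 bp for Sox6 and 185 bp for Sox9. Their share within 100 bp was 83.2% (82.4 to 83.9), below the 86.5% (85.2 to 87.6) of the isolated sites. The 379 pairs isolated in the Sox6 list only were looser, at a median of 50.5 bp (44.5 to 55) and 74.9% (70.3 to 79.2) within 100 bp. Some of these pairs share a Sox6 peak, so their intervals treat repeated peaks as independent. Their next Sox9 centre was a median of 685 bp away, and whether this bears on the centre distances was not tested.

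**Figure D2:**
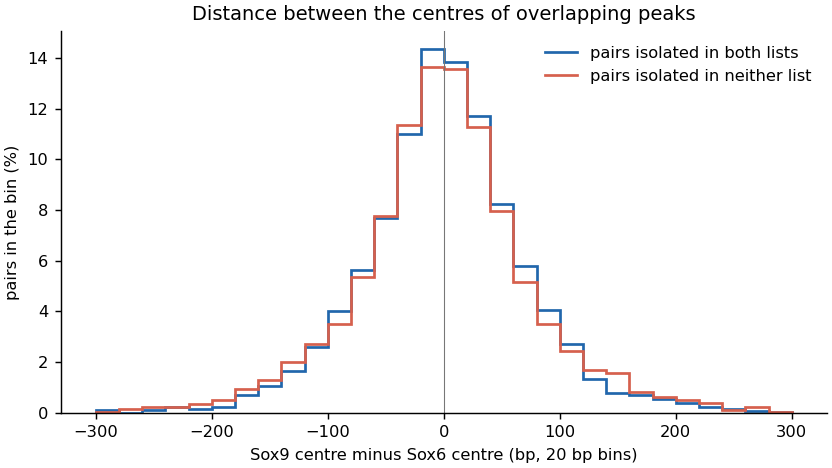
Percentage of pairs (y axis) by the Sox9 centre minus the Sox6 centre in bp (x axis, 20 bp bins from -300 to 300; the few pairs beyond are not drawn), for isolated sites (blue) and crowded pairs (red). Both distributions are highest in the bins beside 0 and fall on either side, with medians of 0.5 bp for the isolated sites and -0.5 bp for the crowded pairs.

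The extremes show the range of shapes behind these medians. Centres coincided exactly at 14 sites; the first of them in the Sox9 list was a Sox6 peak of 56 bp at chr1:72655685-72655740 inside a Sox9 peak of 134 bp at chr1:72655646-72655779. At chr17:90527991-90528139 a Sox6 peak of 149 bp lay centred in a Sox9 peak of 193 bp, and the next Sox6 centre was 456 kb away. The centres farthest apart, at 364 bp, belonged to a Sox6 peak of 475 bp at chr11:96777342-96777816 and a Sox9 peak of 369 bp at chr11:96777759-96778127 that shared 58 bp at their ends. All 5 sites with the farthest centres were end-to-end overlaps of at most 58 bp between peaks that ranged from 158 to 479 bp. The widest Sox6 peak of an isolated site, at chr12:92308736-92309232, spanned 497 bp, and the widest Sox9 peaks, at chr13:63094972-63095466 and chr4:128940504-128940998, spanned 495 bp. The Sox9 partners of the 5 widest Sox6 peaks ranged from 44 to 420 bp, and the Sox6 partners of the 5 widest Sox9 peaks from 64 to 215 bp. Very narrow calls were rare, with 58 Sox6 and 48 Sox9 peaks under 50 bp.

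Isolated sites came later in both lists than crowded pairs. Their median place was 24.2% (23.1 to 25.4) of the way down the Sox6 list and 49.0% (47.6 to 50.7) down the Sox9 list, against 17.8% (17.2 to 18.4) and 41.0% (40.0 to 42.1) for crowded pairs. Pairs isolated in the Sox9 list only stood at 19.2% and 50.0%. Those isolated in the Sox6 list only were the earliest of these groups in the Sox6 list, at 15.2% (12.7 to 17.4), and stood at 45.8% in the Sox9 list, so standing alone did not go with a late place in every group. The first 10% of both lists at once held 163 isolated sites (4.97%, 4.25 to 5.77) and 998 crowded pairs (10.8%, 10.2 to 11.5). The last 50% of both lists at once held 466 isolated sites (14.2%, 13.0 to 15.5) and 10.3% (9.67 to 10.9) of the crowded pairs. Isolated peaks without a counterpart came later still, at a median of 58.7% for 11874 Sox6 peaks and 65.1% for 2086 Sox9 peaks. In width the unshared Sox6 peaks were like the shared ones (152 against 153 bp), and the unshared Sox9 peaks were narrower, at 173 bp (169 to 177) against 189 bp. Width and sharing come from the same spans, and a wider peak can reach an overlap more easily, so this is a description only.

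Places in the lists went together only loosely. Across the isolated sites the place in the Sox6 list and that in the Sox9 list had a Spearman rho of 0.32 (Pearson r 0.29), against 0.41 (0.35) across crowded pairs, both as descriptions over pairs that share their libraries. By number of sites the Sox6 bins fell from 744 in the first to 86 in the last, while the Sox9 bins stayed between 278 and 360. Split into 3 groups of near-equal size by place in the Sox9 list, the early sites had tighter centres, at 34 bp (31.5 to 36.5), than the late ones, at 44.5 bp (41.5 to 48). Grouped likewise by place in the Sox6 list, the early and late values were 36 bp (33.5 to 39.5) and 42.5 bp (40 to 45). Sox6 peaks widened along their list, from a median of 145 bp (142 to 148) in the early group to 166 bp (160 to 172) in the late one, while the Sox9 width in the same groups was 189 and 191 bp.

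**Figure D3:**
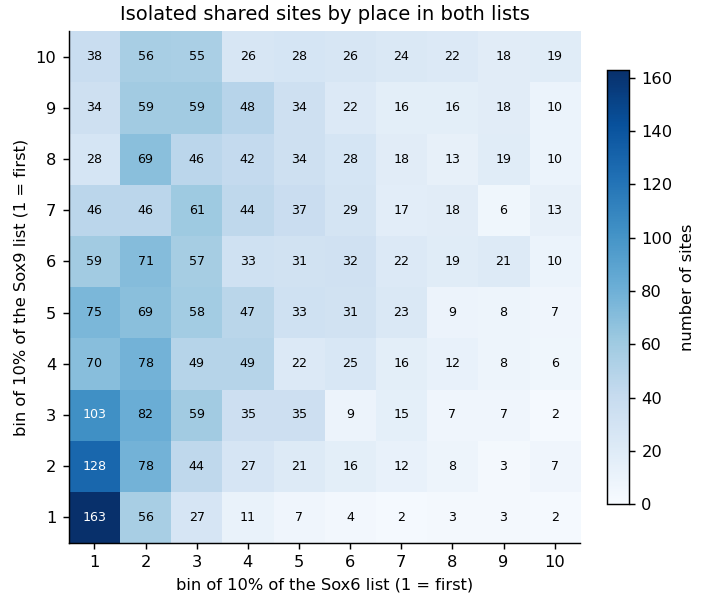
Number of isolated shared sites in each combination of Sox6 list bin (x axis) and Sox9 list bin (y axis), each bin being 10% of a list with 1 the first; colour and printed figure both give the count. The cell for the first 10% of both lists holds most, 163 sites, and the late Sox6 bins hold few sites at every Sox9 bin.

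The isolated sites that stood earliest in both lists were spread over 8 chromosomes for 10 sites. First came a pair at chr11:112449683-112449952 (Sox6, 270 bp, place 89) and chr11:112449690-112449919 (Sox9, 230 bp, place 78), with centres 13 bp apart and the next Sox6 centre 22.7 kb away. The second was the Sox6 peak at chr12:100335711-100335870 (place 452) inside a Sox9 peak of 263 bp (place 63). The next, at chr6:38123541-38123663, was a Sox6 peak of 123 bp (place 707) inside a Sox9 peak of 321 bp (place 64), and 21 other Sox6 peaks lay between 12.5 and 100 kb from it. The fourth lay at chr13:47171080-47171220 (Sox6 place 388, Sox9 place 164). The fifth held the earliest Sox9 peak of any isolated site, at place 3, on a Sox6 peak at chr5:115495322-115495454 that was only at place 974. Of the others, the Sox6 peak at chr11:105684657-105684794 had no peak of either list within 100 kb and its next Sox6 centre at 120 kb. The remaining 4 were at chr2:159581497-159581693, chr9:75721394-75721555, chr1:21115166-21115264 and chr5:37966368-37966544. Across these 10 sites the centre distance ran from 8 to 125 bp, 6 had centres within 50 bp, 8 had the wider Sox9 peak and in 5 the Sox6 peak lay inside it.

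At the other end of both lists the 5 latest sites, picked by place, still overlapped closely. These sites, at chr16:45965108-45965197, chr11:45839634-45839797, chr4:100493103-100493346, chr5:129805217-129805380 and chr6:55281972-55282119, had Sox6 places of 72329 to 77532 and Sox9 places of 22961 to 23813. Their centres were 19 to 57 bp apart, 4 of them within 50 bp, and the peaks shared 82 to 168 bp. In 3 of the 5 the Sox6 peak lay inside the Sox9 peak.

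Beyond the distance used by the rule the surroundings of the isolated sites were sparser than those of crowded pairs. The rule itself set these groups apart by their near neighbours, and no comparison with the average density of the lists was made. In the ring from 12.5 to 100 kb around a site there was a median of 7 Sox6 peaks (quartiles 3 and 12) and 2 Sox9 peaks (1 and 4), against 14 (9 and 20) and 5 (2 and 8) around crowded pairs. Pairs isolated in the Sox9 list only were between these, with 10 and 3. The ring was empty of both factors around 182 isolated sites (5.55%, 4.79 to 6.39) and around 35 crowded pairs (0.380%, 0.265 to 0.528). It held no Sox9 peak around 781 isolated sites (23.8%, 22.4 to 25.3) and around 6.06% (5.58 to 6.56) of crowded pairs. It held no Sox6 peak around 188 isolated sites (5.74%, 4.96 to 6.59) and around 0.413% (0.292 to 0.566) of crowded pairs. What lay in the ring was shared about as often as elsewhere. Of the Sox9 peaks there, summed over sites so that a peak can count more than once, 76.8% overlapped a Sox6 peak around isolated sites and 75.6% around crowded pairs, and of the Sox6 peaks 24.6% and 26.2% overlapped a Sox9 peak.

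**Figure D4:**
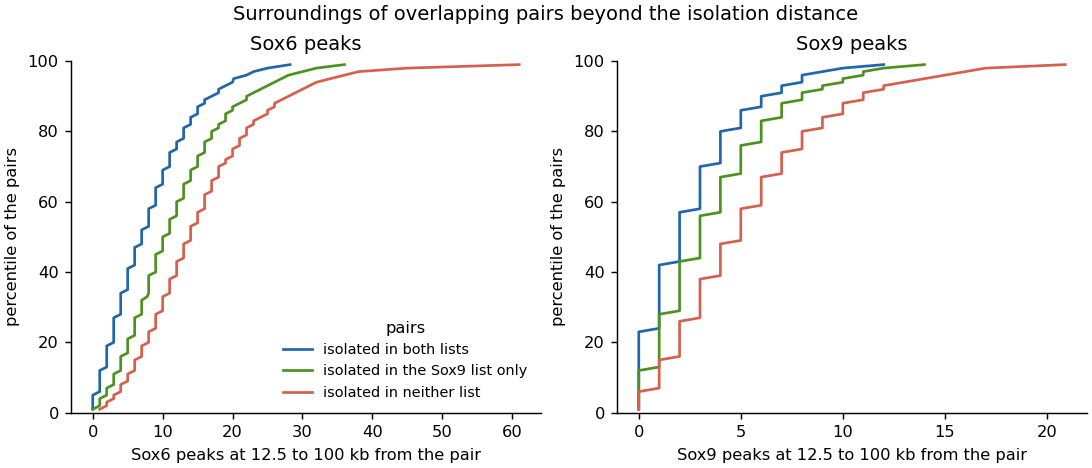
Percentile of the pairs (y axis) against the number of Sox6 peaks (left) or Sox9 peaks (right) at 12.5 to 100 kb from the pair (x axis), for pairs isolated in both lists (blue), in the Sox9 list only (green) and in neither (red). The isolated sites have the fewest peaks at each percentile where the curves differ, with medians of 7 Sox6 and 2 Sox9 peaks against 14 and 5 for crowded pairs.

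The next Sox6 centre was a median of 23.6 kb from an isolated site's own, and the next Sox9 centre 44.7 kb away. That next Sox6 peak was itself shared with Sox9 at 786 sites (24.0%, 22.5 to 25.5), close to the 23.2% of all autosomal Sox6 peaks, and it belonged to another isolated shared site at 362. The next Sox9 peak was shared at 2615 sites (79.8%, 78.4 to 81.1), against 76.7% of all autosomal Sox9 peaks. It belonged to another isolated shared site at 916 (27.9%, 26.4 to 29.5), where 3278 of the 23615 autosomal Sox9 peaks belong to one. Because the rule looked at each list separately, a further centre of the partner's list could still be near, and this was so at 8 sites.

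A small number of sites were isolated on a far larger scale. No other centre of either list lay within 50 kb of 530 sites, within 200 kb of 60 and within 500 kb of 13, and those 13 were on 9 chromosomes. The farthest from any other peak was the Sox6 peak of 49 bp at chr15:20112984-20113032 with a Sox9 peak of 231 bp, 1840 kb from the next Sox6 centre and 2382 kb from the next Sox9 centre. It was followed by sites at chr1:147191633-147191754 (846 kb), chr14:88795037-88795187 (826 kb), chr6:133055219-133055312 (771 kb) and chr11:15670107-15670230 (738 kb). Their Sox6 places ran from 14.7% to 69.8% of the list, with those on chromosomes 6 and 11 (14.7% and 20.9%) ahead of the median of 24.2% over all isolated sites. Their Sox9 places ran from 42.3% to 97.2%, and the Sox9 peak was the wider one in all 5. Their centres were 10 to 160 bp apart. At chr6:133055219-133055312 only 13 bp were shared with the Sox9 peak at chr6:133054980-133055231.

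Sites near other peaks and sites far from them had similar median shapes. The 1792 sites with another centre within 25 kb had a median centre distance of 39.3 bp (36.5 to 41), and the 182 sites with none within 100 kb had 40.3 bp (35 to 46.5). Median Sox6 widths in these groups were 151 bp (148 to 154) and 152 bp (144 to 163), and median Sox9 widths 187 bp (184 to 191) and 194 bp (187 to 208). The median place was 23.1% (22.0 to 24.5) and 25.7% (21.8 to 33.6) of the Sox6 list, and 48.3% (46.0 to 50.4) and 52.2% (46.0 to 61.7) of the Sox9 list. All 5 pairs of intervals overlap, which does not show that the groups are alike.

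Every autosome carried isolated shared sites, from 89 on chromosome 19 to 274 on chromosome 1. The share of overlapping pairs that were isolated ran from 15.3% (12.8 to 18.0) on chromosome 17 to 21.2% (18.5 to 24.1) on chromosome 13. Per Mb between the first and last peak of a chromosome there were 1.10 sites on chromosome 12 and 1.72 on chromosome 11, which also had the fewest and the most Sox6 peaks per Mb, 25.9 and 45.0. Chromosomes denser in Sox6 peaks had a smaller share of isolated pairs (Spearman rho -0.62, Pearson r -0.60 over 19 chromosomes of the same 2 lists). The same was seen with Sox9 peaks per Mb (Spearman rho -0.69, Pearson r -0.65). This is given as a description, since a denser list leaves less room for a peak to stand alone. Median centre distances lay between 31 bp on chromosome 17 and 44.3 bp on chromosomes 3 and 12.

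**Figure D5:**
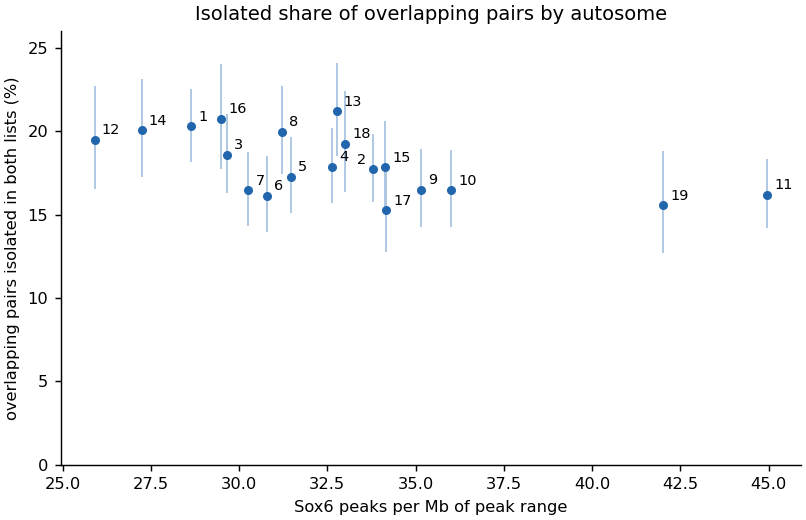
Percentage of overlapping pairs that are isolated in both lists (y axis) against Sox6 peaks per Mb of the chromosome's peak range (x axis), with 1 numbered point per autosome and 95% exact binomial intervals as bars. The share lies between 15.3% and 21.2%, and the densest autosomes, 11 and 19, are at 16.2% and 15.6%.

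Neighbouring isolated sites were a median of 388 kb apart (365 to 407), with quartiles of 146 and 870 kb. They fell in 1602 windows of 1 Mb, of which 679 held 1 site and 484 held 2. Isolated sites could still gather in a region: 9 lay in the window from 79000001 to 80000000 on chromosome 14, among 51 Sox6 and 24 Sox9 peaks, and 8 in the window from 172000001 to 173000000 on chromosome 1, among 48 and 21. These windows were chosen after their values were seen.

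Some isolated peaks of the factors were neighbours without touching. In 341 further pairs, isolated in both lists by the same distance, the centres lay within 1000 bp but the peaks did not overlap. The median gap between their edges was 80 bp (66 to 94), with quartiles of 30 and 218 bp, and their centres were a median of 244.5 bp (225 to 268.5) apart. The gap was under 50 bp in 125 of them, from 50 to under 100 bp in 70, from 100 to under 200 bp in 54, from 200 to under 500 bp in 69 and 500 bp or more in 23.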

How the data were processed

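The authors deposited both lists as 3 columns (chromosome, start, end) without a header, score or count. Bowtie and the build mm9 are named per the submitters' processing notes. Their versions and the peak caller were not found in the labels or headers. The only trace of a calling threshold is the tag FDR1 in the names of both lists, which the sources used here do not explain. The Sox9 list has no build of its own and was taken as mm9. Per the series' design text, Sox9 peaks were called as the Sox6 peaks were. Starts were read as counted from 0 and are printed from 1. Overlapping neighbours within a list were kept. The centre is the midpoint of a peak, and place is its line in the deposited list. Overlap, isolation and distances were computed with Python 3.11.15, numpy 2.4.6, pandas 2.3.3 and scipy 1.17.1, and the steps were checked on simulated lists.

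Sites and comparisons were chosen with earlier results of these data known. Named regions are the 10 earliest and 5 latest in both lists, the 5 farthest from any other peak, the 5 with the closest and the 5 with the farthest centres, the 5 widest for each factor, and 3 on each side of both limits. Of the alternatives, 8 were planned and 2 added after seeing the data. Gene positions, gene lists, motifs and sequences were planned but not run, because no mm9 genome or annotation was used.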

Additional observations from a re-analysis of the deposited data

How the results depend on the processing

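All 8 summary values were recomputed under 9 settings. With overlapping neighbours merged, and with chromosomes X and Y included, none of the 8 moved beyond its interval or, for the number of sites, by over 1.5 times. An isolation distance of 5 kb gave 6587 sites and a shared share of isolated Sox6 peaks of 25.2%, and 25 kb gave 1486 sites, 21.3% and a median Sox6 place of 25.5%. Requiring an overlap of 50% of both peaks left 1981 sites, with 14.0% of isolated Sox6 and 47.3% of isolated Sox9 peaks shared, a centre distance of 26 bp, a Sox6 width of 159 bp and a Sox9 place of 45.9%. Counting centres within 250 bp gave 24.5%, 84.8% and 41.5 bp. The first 50% of each list gave 21.3%, 76.2%, 35.5 bp, widths of 150 and 186 bp, and places of 12.6% and 24.4%. With the Sox6 list held to the Sox9 list's length there were 4333 sites, more than in the full lists. The shares were then 48.9% and 50.9%, the Sox6 width 146 bp and the places 12.0% and 41.4%. Isolation from peaks of both lists, added after seeing the data, gave 22.6% and 84.2%. The smaller places and centre distances, and the smaller count under the stricter overlap, follow in part from the construction of these settings. Beyond that the cause was not tested. Fewer peaks did not always give fewer sites: the count fell to 2826 in the first 50% of each list but rose with the shortened Sox6 list.

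No paired analysis was possible because the results come from no test. Each factor has 1 list with no score, replicate or depth, so a peak missing from a list is not shown to be unbound, and how often peaks stand alone depends on list length. The order of the lists is undocumented, and values by place rest on it.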
